A study of Mus musculus with 4 samples.

Results

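The 7 genes described here belong to the MHC class II pathway: H2-Aa, H2-Ab1, H2-Eb1, Cd74, Ciita, H2-DMa and H2-DMb1. They are 7 of 20887 genes named on the array. All non-control probes whose annotated RefSeq accession belongs to one of them were taken, whatever their signal, which gave 8 probes of 55681, with H2-Ab1 measured by a pair of probes and each other gene by 1. RNA came from differentiated neural precursor cells of C57BL/6 mouse embryos, either APPswe/PS1dE9 or wild-type (WT). Per the labels, precursors from the telencephalon at embryonic day 13 grew for 5 days as neurospheres with EGF and FGF2, both at 20 ng/ml. They then stayed for 7 days on poly-L-lysine and laminin without these factors. Each of 4 two-colour arrays compared 1 APPswe/PS1dE9 culture with 1 WT culture. APPswe/PS1dE9 RNA carried Cy3 on replicates 1 and 2 and Cy5 on replicates 3 and 4. APPswe/PS1dE9 mice carry transgenes with mutations of familial Alzheimer's disease in amyloid precursor protein and presenilin 1. In the widely used line of that name the mouse prion promoter drives both. The labels do not name the promoter. They also do not say whether the cultures came from separate embryos or litters, so the spread behind each p-value, that of 4 arrays, may be technical.

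MHC class II molecules present peptides from endosomes to CD4+ T cells. An alpha and a beta chain assemble with the invariant chain, which Cd74 encodes, and proteases trim this chain to a fragment that the H2-DM protein exchanges for peptide. The coactivator Ciita switches the genes on together with factors that sit on the X and Y boxes of their promoters, and interferon gamma induces Ciita. In the brain, microglia and border macrophages are the known carriers of class II, and resting microglia carry little. C57BL/6 mice make no E alpha chain, so their H2-Eb1 product does not reach the cell surface as an E molecule.

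The promoters of the members are shown first because class II genes are known to be switched on together through the X and Y boxes. RefSeq's table for GRCm38.p6 holds promoters of 4 members, H2-Aa, H2-Eb1, H2-DMa and H2-DMb1, each running from 250 bases before to 50 bases after the annotated start. Both strands were searched for ACNGATG, the 3′ part of the X box, and for GATTGG, the core of the Y box; no matches of the pair overlapped in the members. The 100 bases that end 11 bases before the start are printed 5′ to 3′, with matches in capitals.
H2-Eb1, chr17:34305757-34305856, plus strand: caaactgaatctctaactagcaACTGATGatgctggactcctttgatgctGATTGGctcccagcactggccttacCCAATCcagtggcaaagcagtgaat
H2-DMb1, chr17:34153081-34153180, plus strand: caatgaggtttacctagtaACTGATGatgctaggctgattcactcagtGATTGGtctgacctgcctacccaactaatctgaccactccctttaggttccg
H2-Aa, chr17:34287834-34287933, minus strand: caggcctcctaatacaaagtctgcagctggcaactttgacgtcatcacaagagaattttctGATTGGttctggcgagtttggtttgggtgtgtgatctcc
H2-DMa, chr17:34122722-34122821, plus strand: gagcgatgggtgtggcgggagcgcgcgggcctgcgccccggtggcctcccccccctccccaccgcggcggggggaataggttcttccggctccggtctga

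The H2-Eb1 and H2-DMb1 promoters held both motifs in the same order, separated by 21 bases in H2-Eb1 and by 22 in H2-DMb1. H2-Eb1 had a further GATTGG on the other strand. H2-Aa held GATTGG within this stretch, and ACNGATG on the other strand farther upstream. Neither motif occurred in the H2-DMa promoter shown, and its second annotated promoter held GATTGG alone. Over all 32851 promoters of the table, 9.85% held ACNGATG and 16.1% held GATTGG. Both in this order on 1 strand, separated by 15 to 30 bases, occurred in 17 promoters (0.0517%). These belonged to 15 genes. Of the 8 class II genes with a promoter in the table, 4 were among them: H2-Eb1, H2-DMb1, H2-DMb2 and H2-Eb2. A match is a description of the letters, and nothing about binding was measured.

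Detection differed among the 7 genes. Feature Extraction flags a spot as well above background in each channel. H2-Ab1 and H2-DMa were well above background in both genotypes on 4 of 4 arrays. H2-Eb1 was so in 3 APPswe/PS1dE9 cultures and 1 WT culture, and H2-DMb1 in 3 APPswe/PS1dE9 cultures and 0 WT cultures. Cd74 was above background in 1 APPswe/PS1dE9 culture, on replicate 4, and in 0 WT cultures. On that array 59.6% of probe spots were well above background in the APPswe/PS1dE9 channel and 48.1% in the WT channel. H2-Aa and Ciita were not well above background on any array in either genotype. For comparison, 21% of the 27509 probes named by accession were above background on no array in either genotype. Over all probes, 47.5% were above background on 3 or 4 arrays in APPswe/PS1dE9 and 45.2% in WT.

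Of the members, H2-Ab1 was higher in APPswe/PS1dE9 cultures, by 1.47-fold with the first of its probes and 1.48-fold with the second. In all, 5 probes of 4 genes had enough signal to be tested, which required a level well above background in 1 genotype on at least 3 arrays. H2-DMb1 and H2-Eb1 met this through the APPswe/PS1dE9 cultures alone. Of the 5 tested probes, 2 were higher, both of H2-Ab1, 0 were lower and 3 did not pass, at a Benjamini-Hochberg adjusted p of 0.05 from limma over 26898 probes. Over all tested probes, 6.89% were higher and 1.9% lower. The lower share rose with median centring in place of loess, where 1559 probes were higher and 1675 lower. The median log2 ratio was 0.42 over the 5 tested member probes, the value of H2-DMb1, and 0.01 over all tested probes. The filter favoured higher ratios for H2-DMb1 and H2-Eb1, and H2-Ab1 counts with both probes. This median is therefore no measure of a shift of the pathway. The call on H2-Ab1 held with both probes without replicate 1 (adjusted p = 0.000958 and 0.000571) or without replicate 2 (0.00393 and 0.00184). Without replicate 3 or without replicate 4, 0 of the 5 probes passed, and the 2 H2-Ab1 probes had adjusted p of 0.0587 and 0.0618 in the first case and 0.104 and 0.0773 in the second. Log2 ratios of the pair lay between 0.48 and 0.63 in these 4 fits. Because the fit holds a dye term, its residual spread came from replicates 3 and 4 alone without replicate 1 or 2. It came from replicates 1 and 2 alone without replicate 3 or 4. The 4 fits are thus not 4 separate checks of spread. Over all probes, 2835 and 2151 were higher without replicate 1 or 2, and 499 and 363 without replicate 3 or 4.

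**Figure D1:**
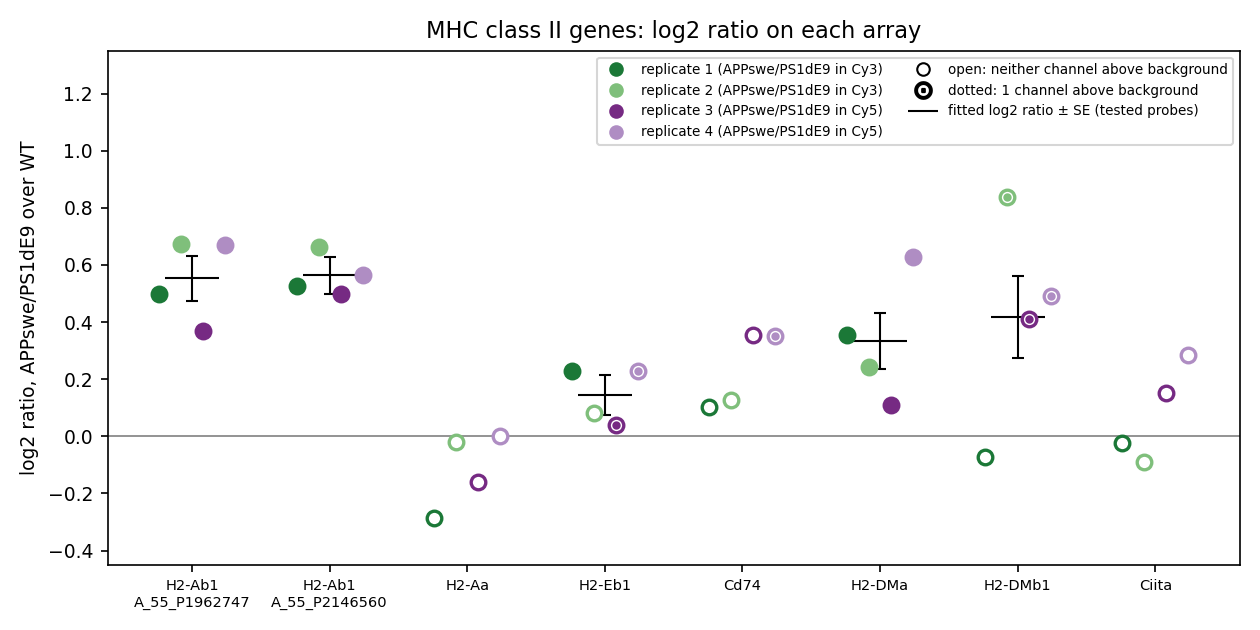
Log2 ratio of APPswe/PS1dE9 over WT for each of the 8 class II probes, with 1 point per array, coloured by replicate. Filled points were well above background in both channels, dotted ones in 1 and open ones in neither, and bars give the fitted ratio ± SE of the tested probes. The H2-Ab1 points lie between 0.37 and 0.67, while those of H2-Aa lie between -0.28 and 0.00 and are all open.

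H2-Ab1 encodes the beta chain of the A molecule, the class II molecule that C57BL/6 mice present at the cell surface. Normalized intensities of its first probe, A_55_P1962747, were 343, 344, 355 and 518 in APPswe/PS1dE9 cultures of replicates 1 to 4. In the WT cultures they were 243, 216, 275 and 326. Every APPswe/PS1dE9 culture lay above every WT culture, but how common such a separation was among all tested probes was not counted. On the log2 scale the ratios were 0.50, 0.67, 0.37 and 0.67 on the 4 arrays, and the fitted ratio was 0.55 ± 0.08 (SE, n = 4 arrays; limma adjusted p = 0.0105). The second probe, A_55_P2146560, read 295, 273, 288 and 379 in APPswe/PS1dE9 cultures. It read 205, 172, 204 and 256 in WT cultures, again with no overlap between genotypes. Its log2 ratios were 0.53, 0.66, 0.50 and 0.57, with a fitted ratio of 0.56 ± 0.06 (SE, n = 4 arrays; limma adjusted p = 0.00493). Both probes report 1 transcript in the same 4 pairs of cultures, so they are not separate samples. With Feature Extraction's own processed signals the second probe was called and the first was not (0.55, adjusted p = 0.0509).

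H2-Aa encodes the alpha chain that pairs with the H2-Ab1 product. Its probe read 65.0, 72.7, 71.0 and 75.9 in APPswe/PS1dE9 cultures and 79.1, 73.6, 79.3 and 75.9 in WT cultures, with no spot well above background. The log2 ratios were -0.28, -0.02, -0.16 and 0.00, which describe signal at background. Ratios of spots this dim are drawn towards 0 by the offset of 50 added in the background correction. With the processed signals its ratio on replicate 1 was 0.74 and those on the other arrays were negative. The chains of the A molecule thus differed in detection with these probes, the beta chain in 8 of 8 cultures and the alpha chain in 0 of 8.

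H2-Eb1 encodes the beta chain of the E molecule. It read 119, 106, 118 and 136 in APPswe/PS1dE9 cultures and 102, 100.1, 115 and 116 in WT cultures, and the ranges overlapped. The log2 ratios were 0.23, 0.08, 0.04 and 0.23, above 0 on 4 of 4 arrays. The fitted ratio of 0.14 ± 0.07 did not pass (SE, n = 4 arrays; limma adjusted p = 0.267), with an unadjusted 95% interval of -0.02 to 0.31. With the processed signals the ratio on replicate 3 was -0.08.

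Cd74 encodes the invariant chain, which class II chains need to leave the endoplasmic reticulum. Its probe read 80.1, 94.1, 97.3 and 109.9 in APPswe/PS1dE9 cultures and 74.6, 86.2, 76.2 and 86.2 in WT cultures. The APPswe/PS1dE9 culture of each array read higher than its WT partner, and the ranges overlapped across arrays. Its log2 ratios were 0.10, 0.13, 0.35 and 0.35, against -0.12, 0.28, 1.33 and 0.87 with the processed signals, so the direction on replicate 1 turned with the scaling. They were not tested, because 1 of 8 readings was well above background.

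H2-DMa and H2-DMb1 encode the chains of H2-DM, the peptide exchange protein. H2-DMa read 206, 176, 197 and 255 in APPswe/PS1dE9 cultures and 161, 148, 182 and 165 in WT cultures, and the lowest APPswe/PS1dE9 value lay below the highest WT value. On the log2 scale its ratios were 0.35, 0.24, 0.11 and 0.63. The fitted ratio of 0.33 ± 0.10 did not pass (SE, n = 4 arrays; limma adjusted p = 0.0937), with an unadjusted 95% interval of 0.10 to 0.57. Its ratio on replicate 3 was -0.01 with the processed signals. With median centring in place of loess H2-DMa passed (0.33, adjusted p = 0.0477).

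H2-DMb1 had the widest spread of ratios among the tested members (SD 0.37). It has a near-identical neighbour, H2-DMb2, so its probe may read both. It read 74.4, 157, 111 and 102 in APPswe/PS1dE9 cultures against 78.2, 87.6, 83.5 and 72.9 in WT cultures, so that the culture of replicate 1 lay within the WT range and the other three above it. The log2 ratios were -0.07, 0.84, 0.41 and 0.49, and the fitted ratio of 0.42 ± 0.14 did not pass (SE, n = 4 arrays; limma adjusted p = 0.142). Because no WT culture was well above background, a fold with a raised WT value was also taken from the mean normalized level of 107 in APPswe/PS1dE9. Per array, the WT value was set to the higher of its own signal and the lowest signal well above background. This gave 1.28-fold for the group means, with a measured WT mean of 80.4. It is not a lower limit, because the WT value changed on replicate 4 alone. The APPswe/PS1dE9 signal of replicate 1 was also not well above background. The APPswe/PS1dE9 mean includes the value of 157 on replicate 2, and the fit's unadjusted 95% interval of the fold was 1.05 to 1.70. Without replicate 1 the fitted ratio was 0.64 and passed (adjusted p = 0.000309), and without replicate 2 it was 0.19. With median centring it also passed (0.35, adjusted p = 0.0302). With the processed signals it was 1.48, where the WT spots stood between 4.44 and 14.6, and did not pass.

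Ciita, the coactivator of class II genes, read 77.0, 76.1, 91.6 and 91.7 in APPswe/PS1dE9 cultures and 78.1, 80.9, 82.4 and 75.3 in WT cultures. No spot was well above background. The log2 ratios of -0.02, -0.09, 0.15 and 0.28 were negative on both arrays with APPswe/PS1dE9 in Cy3 and positive on both with it in Cy5. The part of dye in these ratios was not tested. With the processed signals, none well above background, the ratios were 0.84, 0.01, 0.79 and 0.89.

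**Figure D2:**
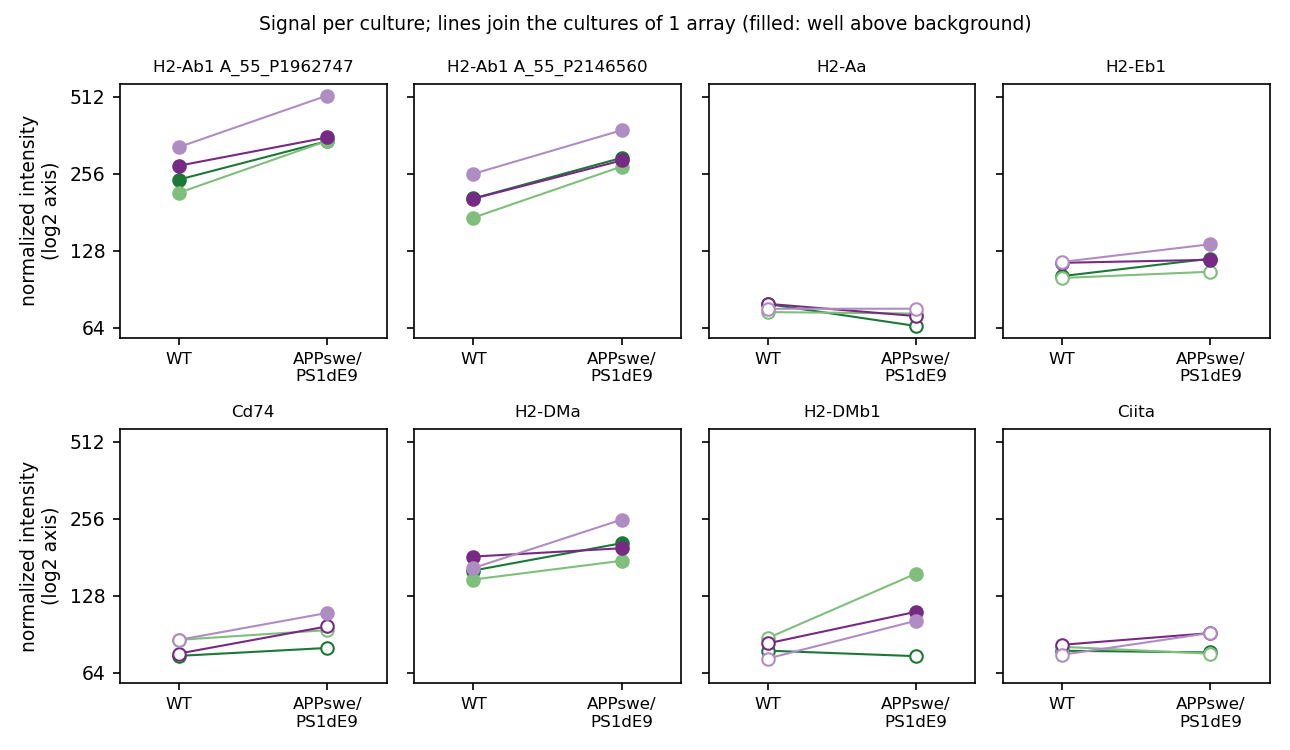
Normalized intensity (log2 axis) of each class II probe in the WT and APPswe/PS1dE9 culture of each array, joined by a line and coloured by replicate, with filled points well above background. Lines rise in all 4 pairs for both H2-Ab1 probes, whereas H2-Aa stays between 65.0 and 79.3 with open points alone.

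The genes whose ratios were most like H2-Ab1 were sought over 13640 named genes, by Euclidean distance over the log2 ratios of the 4 arrays to probe A_55_P1962747. The nearest were Col18a1, a basement membrane collagen gene (distance 0.0848), Capn3, a calpain protease gene (0.0877), Dbndd2 (0.0977), Rbm43 (0.103) and Sdc2, a syndecan gene (0.115). Their fitted log2 ratios were 0.52 to 0.57. The median distance over the named genes was 1.14, and the second H2-Ab1 probe lay at 0.168. No class II gene was among these 5, since members were left out of the search.

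Other class II genes of the H-2 region were not measurable at this signal. Of the 5 listed, H2-Oa, H2-Ob, H2-DMb2 and H2-Eb2 had a probe named by accession, and none reached the threshold for testing. H2-Oa and H2-DMb2 were above background on no array. H2-Eb2, a further E beta gene, was so in 1 APPswe/PS1dE9 culture, and H2-Ob, a chain of the H2-DM inhibitor H2-O, in 1 APPswe/PS1dE9 and 2 WT cultures with 1 of its 2 probes.

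Genes that act around class II were counted with 1 probe per gene, the tested probe of highest mean intensity. Of 33 listed genes 23 were measured, of which 8 were higher and 1 was lower. Over all 13669 named genes, 10.2% were higher and 2.16% lower. The lists were chosen with earlier results of these data known. Endosomal processing genes had the largest counts among these lists, with 4 of 7 higher and a median log2 ratio of 0.63, against 0.01 over all named genes. Ctss, the cathepsin S gene, whose protease trims the invariant chain, was higher on 4 of 4 arrays (log2 ratio 2.52 ± 0.07, adjusted p = 8.20e-05). Ctss met the filter through the APPswe/PS1dE9 cultures alone. The other 6 processing genes were well above background in WT on at least 3 arrays, and 3 of them were higher. Only 1 of the 4 WT cultures had a Ctss signal above background, so the size of its ratio depends on how background is treated. The Ctss ratio was 3.30 with a normexp offset of 0 and 4.00 with the processed signals. The cathepsin genes Ctsb (0.97 ± 0.06) and Ctsd (0.81 ± 0.06) and the legumain gene Lgmn (0.63 ± 0.08) were higher as well, each on 4 of 4 arrays. Ctsl (0.16 ± 0.08), the thiol reductase gene Ifi30 (-0.09 ± 0.06) and the intramembrane protease gene Sppl2a, whose product clears the invariant chain remnant (0.07 ± 0.06), did not pass. Without replicate 3 or 4 Lgmn did not pass (adjusted p = 0.0555 and 0.0915).

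Along the interferon gamma route to Ciita, 3 of 5 measured genes were higher. The receptor chain genes Ifngr1 (0.66 ± 0.08) and Ifngr2 (0.38 ± 0.06) and the transcription factor gene Irf1, which acts on a Ciita promoter (1.25 ± 0.10), rose on 4 of 4 arrays. The second Irf1 probe was above background on no array. The kinase genes Jak1 (0.03 ± 0.07) and Jak2 (-0.21 ± 0.06) did not pass. Ifng itself was above background in 2 cultures of each genotype and was not tested. Ifngr2 did not pass under 7 of 14 alternatives, with adjusted p between 0.0555 with no filter and 0.239 on the same-sex arrays, replicates 2 and 4. It did not pass without replicate 3 or without replicate 4 (0.0923 and 0.134). Ifngr1 did not pass without replicate 4 or with the processed signals (adjusted p = 0.0787 and 0.0504).

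Of the complex that binds the X and Y boxes, 0 of 6 measured genes were higher and 1 was lower. This was Nfya, a subunit of the Y box factor (-0.29 ± 0.07, adjusted p = 0.0490), a call lost under 11 of 14 alternatives. Nfyb (-0.23 ± 0.07), Nfyc (-0.12 ± 0.06) and the X box factors Rfxank (0.31 ± 0.12) and Rfxap (-0.02 ± 0.06) did not pass. Neither of the 2 Rfx5 probes was bright enough to be tested.

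The ubiquitin ligase genes Marchf1 (0.08 ± 0.08, and -0.17 with its other probe) and Marchf8 (-0.14 ± 0.07), whose products remove class II from the surface, did not pass. Of the co-stimulatory genes Cd80 was measured (0.08 ± 0.08) and did not pass, Cd86 was above background in 1 APPswe/PS1dE9 culture, and Cd40 in none. Cd44, which signals with surface Cd74, rose (0.56 ± 0.07, adjusted p = 0.00632), although not without replicate 3 or 4 (adjusted p = 0.0788 and 0.0899). Mif, the ligand of Cd74, was at -0.10 ± 0.06 and did not pass.

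**Figure D3:**
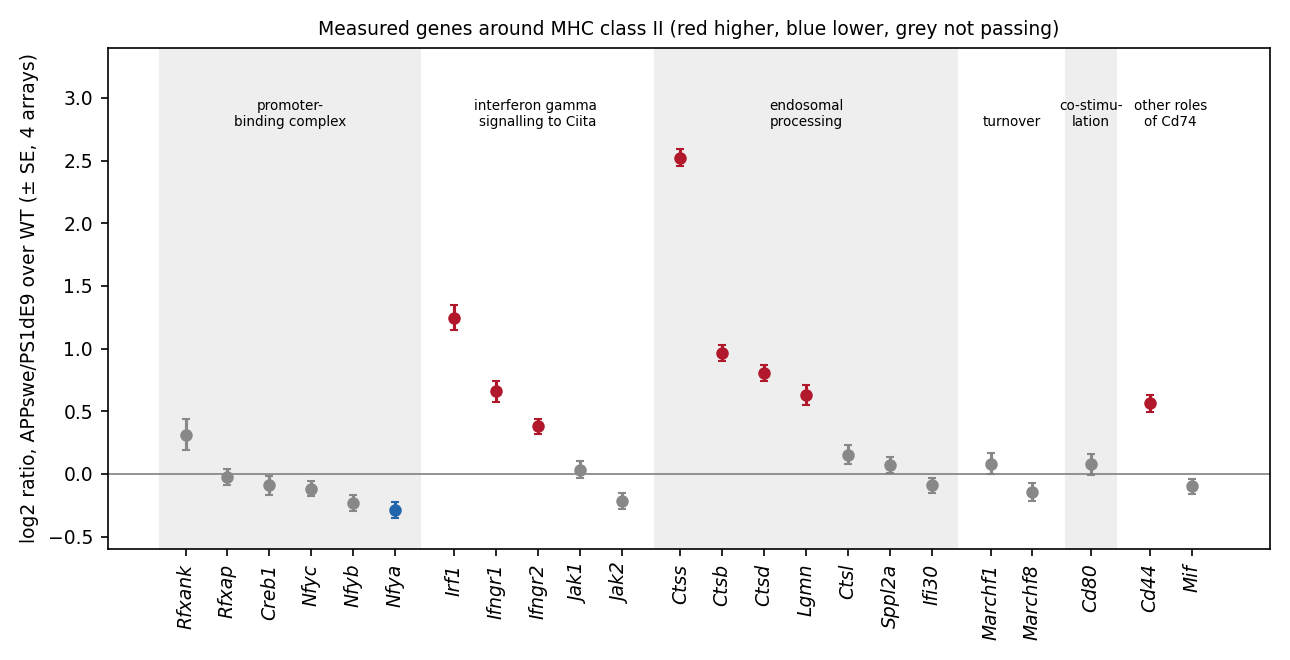
Fitted log2 ratio of APPswe/PS1dE9 over WT ± SE (4 arrays) for the 23 measured genes around class II, grouped by role, with red for higher, blue for lower and grey for genes that did not pass. Ctss stands at 2.52, and the 4 red processing genes and 3 red interferon gamma genes lie above 0.

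Some markers of other cells were also higher in APPswe/PS1dE9 cultures. Among 12 measured microglia and macrophage markers 11 were higher, against 10.2% of all named genes, and the remaining one, Itgam, was at 0.11. Csf1r was higher with its brightest probe (0.95 ± 0.07) but not with another probe well above background in all cultures (0.02 ± 0.07). Of these 12, 5 met the filter through the APPswe/PS1dE9 cultures alone, with WT at or near background. Of the other 7, well above background in WT on at least 3 arrays, 6 were higher. The summed normalized intensity of the list was 14751 to 18975 in APPswe/PS1dE9 cultures and 10105 to 12298 in WT cultures, and each of the 14 markers was above background on at least 1 array. A large part of these sums came from the brightest Itgam probe, with means of 8640 in APPswe/PS1dE9 and 8016 in WT. Other Itgam probes read far lower, with means of 193 and 155, and of 109 and 106. Over the 7 class II genes the summed intensity was 965 to 1288 against 793 to 916. Among border macrophage markers Pf4 was higher (0.83 ± 0.13), with 1 WT culture above background, and Cd163, Lyve1 and Mrc1 were above background on no array, with summed intensities of 531 to 620 and 425 to 553. In these bulk cultures, fewer cells of a type and less RNA per cell cannot be told apart, and the part of these cells in the H2-Ab1 result was not tested.

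Few markers of dendritic cells and B cells, which are professional antigen-presenting cells, were well above background. Of 8 dendritic cell markers, 2 were measured and Batf3 was higher (0.93 ± 0.09). Clec9a and Xcr1 were above background on no array, and Itgax in 1 APPswe/PS1dE9 culture. The summed intensity of the 8 markers was 13238 to 19560 in APPswe/PS1dE9 and 13659 to 19066 in WT cultures. Most of these sums came from the measured Siglech probe, with means of 15437 in APPswe/PS1dE9 and 14912 in WT. This probe was at 0.05 ± 0.11, while the other Siglech probe was above background in 1 culture, with means of 77.3 and 70.7. Of 5 B cell markers 0 were measured, and Cd79a and Cd79b were above background on no array (sums of 391 to 412 and 362 to 438). The 3 measured T cell markers, Cd3e, Cd4 and Lck, were well above background in both genotypes on 4 of 4 arrays. Of these 0 passed, and Cd3d was above background on no array. The sums of the T cell list were 2218 to 2499.75 and 1949 to 2538. Of endothelial markers 1 of 3 was higher, against 10.2% of all named genes, with sums of 2877 to 3583 and 2404 to 3426. This was Flt1 (0.40 ± 0.07), which met the filter through the APPswe/PS1dE9 cultures alone, with 0 WT cultures above background. Of the 2 endothelial markers well above background in WT on at least 3 arrays, 0 were higher. Cdh5 and Cldn5 were above background on no array.

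Markers of astrocytes and neurons were detected, with all 6 astrocyte and 5 neuron markers well above background in both genotypes on at least 3 arrays. Against the same 10.2% of named genes, which also applies to neurons, 4 of 6 astrocyte markers were higher, with sums of 135983 to 150601 and 98147 to 120714. For neurons 1 of 5 was higher with sums of 50593 to 63662 and 55424 to 65159. Xist and Eif2s3y signals differed between the paired cultures of replicate 1 and of replicate 3. On the other 2 arrays, replicates 2 and 4, both cultures had Xist signal above background and neither had Eif2s3y signal. A fit to these arrays alone, chosen after seeing the data, had no dye intercept, because 2 arrays cannot carry both terms. It gave H2-Ab1 log2 ratios of 0.67 and 0.61. Neither passed there (adjusted p = 0.0612 and 0.0844), with fewer arrays and another model at once.

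**Figure D4:**
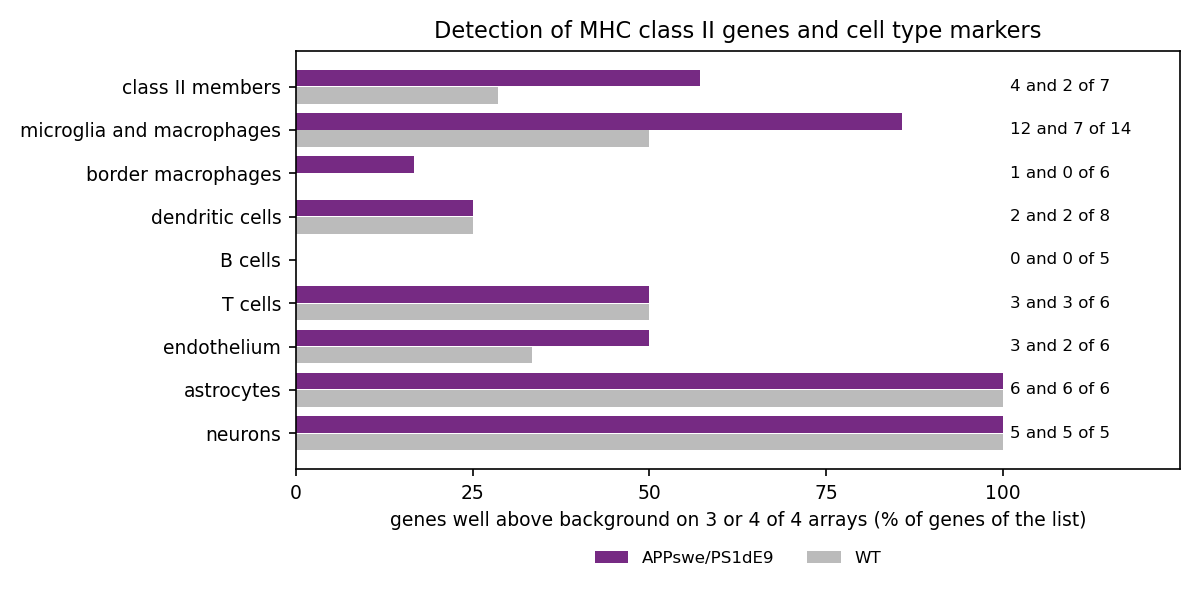
Share of genes of each list that were well above background on 3 or 4 of the 4 arrays, in APPswe/PS1dE9 (purple) and WT (grey) cultures, with the counts at the right. Of the 7 class II genes, 4 reached this in APPswe/PS1dE9 and 2 in WT cultures, against 12 and 7 of 14 microglia and macrophage markers and 0 of 5 B cell markers. Over all probes of the array the shares were 47.5% in APPswe/PS1dE9 and 45.2% in WT.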

How the data were processed

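The authors deposited Feature Extraction 11.0.1.1 files with median spot and local background intensity per channel, not normalized, and processed intensity values with their log10 ratio. All 4 arrays come from 1 slide, read in 1 scan and annotated to mm9, per the file headers. The deposited flags mark spots well above background; no probe spot was saturated. The deposited value table held log2 ratios of the processed signals, APPswe/PS1dE9 over WT, by comparison with the scanner files (slopes -1.00, -1.00, 1.00 and 1.00 on Cy5 over Cy3; column medians -0.0797, -0.155, -0.0373 and -0.0378, so not centred).

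Here, intensities were corrected by normexp (offset 50) and loess in limma 3.58.1 (R 4.3.3), with weight 0 for control and outlier spots, which were dropped before probes were averaged. The planned choice between mean and median foreground fell on medians, as the files hold these. Probes well above background in 1 genotype on at least 3 arrays, 26898, were fitted with lmFit and eBayes, coefficients being genotype and a dye intercept (2 residual and 4.16 prior degrees of freedom), two-sided. A difference between dye orientations goes into that intercept, and the SE leaves it out. The dye term passed in 0 probes. Normalized intensities are per channel after loess and Aquantile. The share of probe spots well above background was 47.5% to 59.6% per channel, and the number of arrays limits the precision. Probes were named by accession through a RefSeq table of GRCm38.p6. The fit was tested on simulated data.

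Members and lists were chosen with earlier results of these data known. Named were all member probes, every list gene past the threshold, up to 4 others per list, and the 5 genes nearest in pattern. Alternatives changed background correction, scaling, signals, filter, probes per gene, dye term and arrays. Some list genes are not reported by name here.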

Additional observations from a re-analysis of the deposited data

Results flagged for a closer look

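The interferon gamma receptor gene Ifngr2 had 1 array apart from the others: its log2 ratio was 0.27 on replicate 3 and 0.40, 0.43 and 0.41 on replicates 1, 2 and 4. A gap of this size relative to the range arises by chance in about 1 of 20 groups, and 17 probes were examined.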

How the results depend on the processing

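No direction of a tested class II probe or of the 9 called pathway genes reversed under the alternatives tried; single marker genes were not followed. H2-Ab1 kept its call with both probes under every other background correction, filter and dye model. Counts of higher class II probes (2) were 4 with median centring, 1 with processed signals, the deposited value table or 1 probe per gene, 0 on the 2 same-sex arrays (fitted without the dye intercept), and 0 to 3 leaving out 1 replicate. Counts over all probes (1852 higher, 512 lower) were 759 and 226 with processed signals, 760 and 225 with the value table, 1050 and 98 with no filter, 458 and 7 on the same-sex arrays, and 363 to 2835 and 5 to 721 leaving out 1 replicate. Lower probes were 300 without background correction, 301 without the dye intercept and 1675 with median centring. Pathway genes (8 higher, 1 lower) were 4 higher on the same-sex arrays and 4 to 9 leaving out 1 replicate. Lower ones were 3 with median centring, 0 to 1 leaving out 1 replicate, and 0 with normexp offset 0, no background correction, processed signals, the value table, no filter, 1 probe per gene, no dye intercept or the same-sex arrays. Marker genes (19 higher, 0 lower) were 12 higher with processed signals, the value table or the same-sex arrays and 11 to 19 leaving out 1 replicate. Lower ones were 2 with median centring and 0 to 1 leaving out 1 replicate. Causes were not tested. Each fit that left out 1 replicate had 1 residual degree of freedom. Prior degrees of freedom were 13.0 without replicate 1 or 2 and 2.99 without replicate 3 or 4. No separate paired analysis was possible because each array is itself a pair. Dim spots limit the class II results: 3 of 7 genes could not be tested and H2-DMb1 and H2-Eb1 rest on APPswe/PS1dE9 signal.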
